A study of Mus musculus with 6 samples.

Results

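The subject is a set of 10 mouse genes for heat shock proteins of the cytosol and the mitochondria, taken through every probe set of the array whose annotation names exactly 1 of them. This gave 20 probe sets for 9 of the 10 genes, out of 20380 single-gene probe sets for 12393 genes. The cytosolic genes were Hspa1a, Hspa1b, Hspa8, Hsph1, Hsp90aa1, Dnaja1 and Dnajb1, and the mitochondrial ones Hspd1 and Hspe1. Hsp90ab1 was not analysed here, because no probe set was named for it alone. The members were chosen by gene name, with earlier results of these data known.

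RNA came from the livers of 3 PiZ transgenic mice and 3 wild-type mice, all 6 weeks old and C57BL/6, with 1 one-colour Affymetrix array per mouse. The PiZ transgene is a human gene for the Z variant of alpha-1 antitrypsin, a protein that misfolds inside the endoplasmic reticulum (ER) of liver cells, and the mice still have their own antitrypsin genes. The labels name neither its promoter nor its copy number. The comparison asks which genes differ in liver between mice with and without this transgene. No array came from mice with a transgene for the normal human protein. Effects of the mutant protein and of carrying a human transgene therefore cannot be told apart. Values are log2 intensities, so a difference of 1 is a doubling. Differences are PiZ minus wild-type from limma with their standard error (SE), n = 3 per group, and a probe set passed at a Benjamini-Hochberg adjusted p below 0.05 over all 22626 probe sets tested. Whole liver was measured, so fewer cells of a type and less RNA per cell cannot be told apart.

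Heat shock proteins are chaperones that keep other proteins folded. In the cytosol, J-proteins such as Dnajb1 and Dnaja1 hand unfolded proteins to the HSP70 ATPases Hspa8 (made in every cell) and Hspa1a and Hspa1b (made on stress). Hsph1, of the HSP110 family, exchanges their nucleotide, and HSP90 proteins finish the folding of signalling proteins. In mitochondria, Hspd1 (HSP60) forms a chamber closed by its lid Hspe1 (HSP10). When unfolded protein builds up in the cytosol, the transcription factor HSF1 binds heat shock elements, which are repeats of GAA in alternating orientation, and turns on many of these genes. Unfolded protein in the ER is sensed by a separate set of receptors, which turn on ER chaperones such as Hspa5 (BiP).

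Promoters are shown for some of the members, because the pair Hspa1a and Hspa1b and the pair Hspd1 and Hspe1 have sequence in common and Hsph1 was among the genes that rose. RefSeq windows of build GRCm38.p6 matched 7 of the 10 genes (12 windows), and the 250 bases before the start were searched on both strands for the short elements GAANNTTC and TTCNNGAA. The same search covered long elements, in which NNGAA follows GAANNTTC or NNTTC follows TTCNNGAA, so each long element contains both short ones. Both short elements read the same on either strand. Capitals mark every match. The windows of Hspa1b (chr17:34959239-34959488, minus strand) and Hspa1a (chr17:34972157-34972406, minus strand) were identical at 247 of 250 positions, and each held 1 short element at positions -104 to -97 from the start. The Hsph1 window (chr5:149636316-149636565, minus strand) also held 1. The 215 bases between one start of Hspd1 and the start of Hspe1, which are read in opposite directions (chr1:55087933-55088147, shown on the plus strand), held a run of 18 bases with both long elements.
Hspa1b: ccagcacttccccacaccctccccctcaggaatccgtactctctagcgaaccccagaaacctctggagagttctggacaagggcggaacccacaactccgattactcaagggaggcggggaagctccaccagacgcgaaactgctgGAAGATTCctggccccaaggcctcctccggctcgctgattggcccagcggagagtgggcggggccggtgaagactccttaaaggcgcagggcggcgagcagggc
Hspa1a: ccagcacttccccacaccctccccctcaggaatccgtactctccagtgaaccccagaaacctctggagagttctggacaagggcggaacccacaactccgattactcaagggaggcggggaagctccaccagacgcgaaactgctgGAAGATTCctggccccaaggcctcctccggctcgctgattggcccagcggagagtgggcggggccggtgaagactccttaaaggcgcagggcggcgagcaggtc
Hsph1: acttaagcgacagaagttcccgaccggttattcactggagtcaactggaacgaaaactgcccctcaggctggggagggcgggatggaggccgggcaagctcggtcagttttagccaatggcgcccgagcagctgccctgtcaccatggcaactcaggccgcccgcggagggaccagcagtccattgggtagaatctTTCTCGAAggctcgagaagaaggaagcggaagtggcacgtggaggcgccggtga
Hspd1-Hspe1: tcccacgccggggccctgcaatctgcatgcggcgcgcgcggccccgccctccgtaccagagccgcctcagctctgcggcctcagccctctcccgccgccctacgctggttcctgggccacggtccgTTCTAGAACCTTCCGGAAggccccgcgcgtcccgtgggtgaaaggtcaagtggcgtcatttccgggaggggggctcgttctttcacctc
A short element lay in 7 of the 12 member windows (6 of 7 genes), against 12.8% of 32851 windows of the same length (14.5% of 27025 genes). These windows are not separate: those of Hspa1a and Hspa1b are nearly identical, those of Hsph1 overlap, and Hspd1 and Hspe1 share a stretch. A long element lay in 2 of the 12, both of them views of the Hspd1 and Hspe1 stretch, against 0.466%. No window of Dnajb1 held an element. These matches are descriptions of letters, not of bound sites.

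The arrays differed in more than genotype. PiZ replicate 1 correlated at 0.979 to 0.982 with the other PiZ arrays, which correlated at 0.993 with each other, and the wild-type arrays correlated at 0.996 to 0.997. The difference between the 3′ and the 5′ end of control transcripts (mean of Gapdh and beta-actin, log2), which is large where RNA is shortened, was 2.50, 4.64 and 4.33 in PiZ replicates 1, 2 and 3, and 2.20, 2.70 and 2.30 in wild-type replicates 1, 2 and 3. Of 8 hepatocyte markers Tat was higher (1.12, limma adjusted p = 0.0306) and Fgb lower (-0.83, adjusted p = 0.0216), and 1 was higher and 5 lower at an unadjusted p below 0.05. Of all 12393 genes, each read by its brightest probe set, 2565 were higher and 2345 lower at that unadjusted p. Limma called 9.99% of them higher and 11.2% lower. These shares are the background for every gene list here and below. The summed intensity (log2) of the 8 hepatocyte markers was 17.11 to 17.31 in PiZ and 17.42 to 17.44 in wild-type arrays. Among them Alb read 14.63 to 14.89 in PiZ and 14.92 to 14.96 in wild-type arrays. Of other cell types, 3 of 7 Kupffer cell markers were higher (summed intensity, log2, 12.50 to 12.83 in PiZ and 12.25 to 12.31 in wild-type), as were 2 of 6 neutrophil markers (S100a8 and S100a9; 9.03 to 9.49 in PiZ and 7.21 to 7.69 in wild-type). Of the markers of endothelial, stellate, bile duct, lymphoid and red cells limma called 0 in each list (3 in all at an unadjusted p below 0.05). The part of these cells in the results below was not tested.

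Heat shock genes did not move together in PiZ liver. The inducible HSP70 gene Hspa1b fell in all 3 of its probe sets, while 1 probe set each of Hsp90aa1 and Hsph1 rose. Dnaja1, Dnajb1, Hspd1 and Hspe1 did not pass in any probe set in the fit of all arrays without weights or covariates. Of the 20 probe sets, 2 rose and 4 fell, against a background of 8.93% of all probe sets higher and 10.2% lower (19.1% called in all). The groups did not overlap for 3 probe sets higher and 5 lower in PiZ, where 23.4% and 18.6% of all probe sets did not (42% in all). The median difference was -0.24 over the 20 probe sets and 0.08 over all probe sets.

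**Figure D1:**
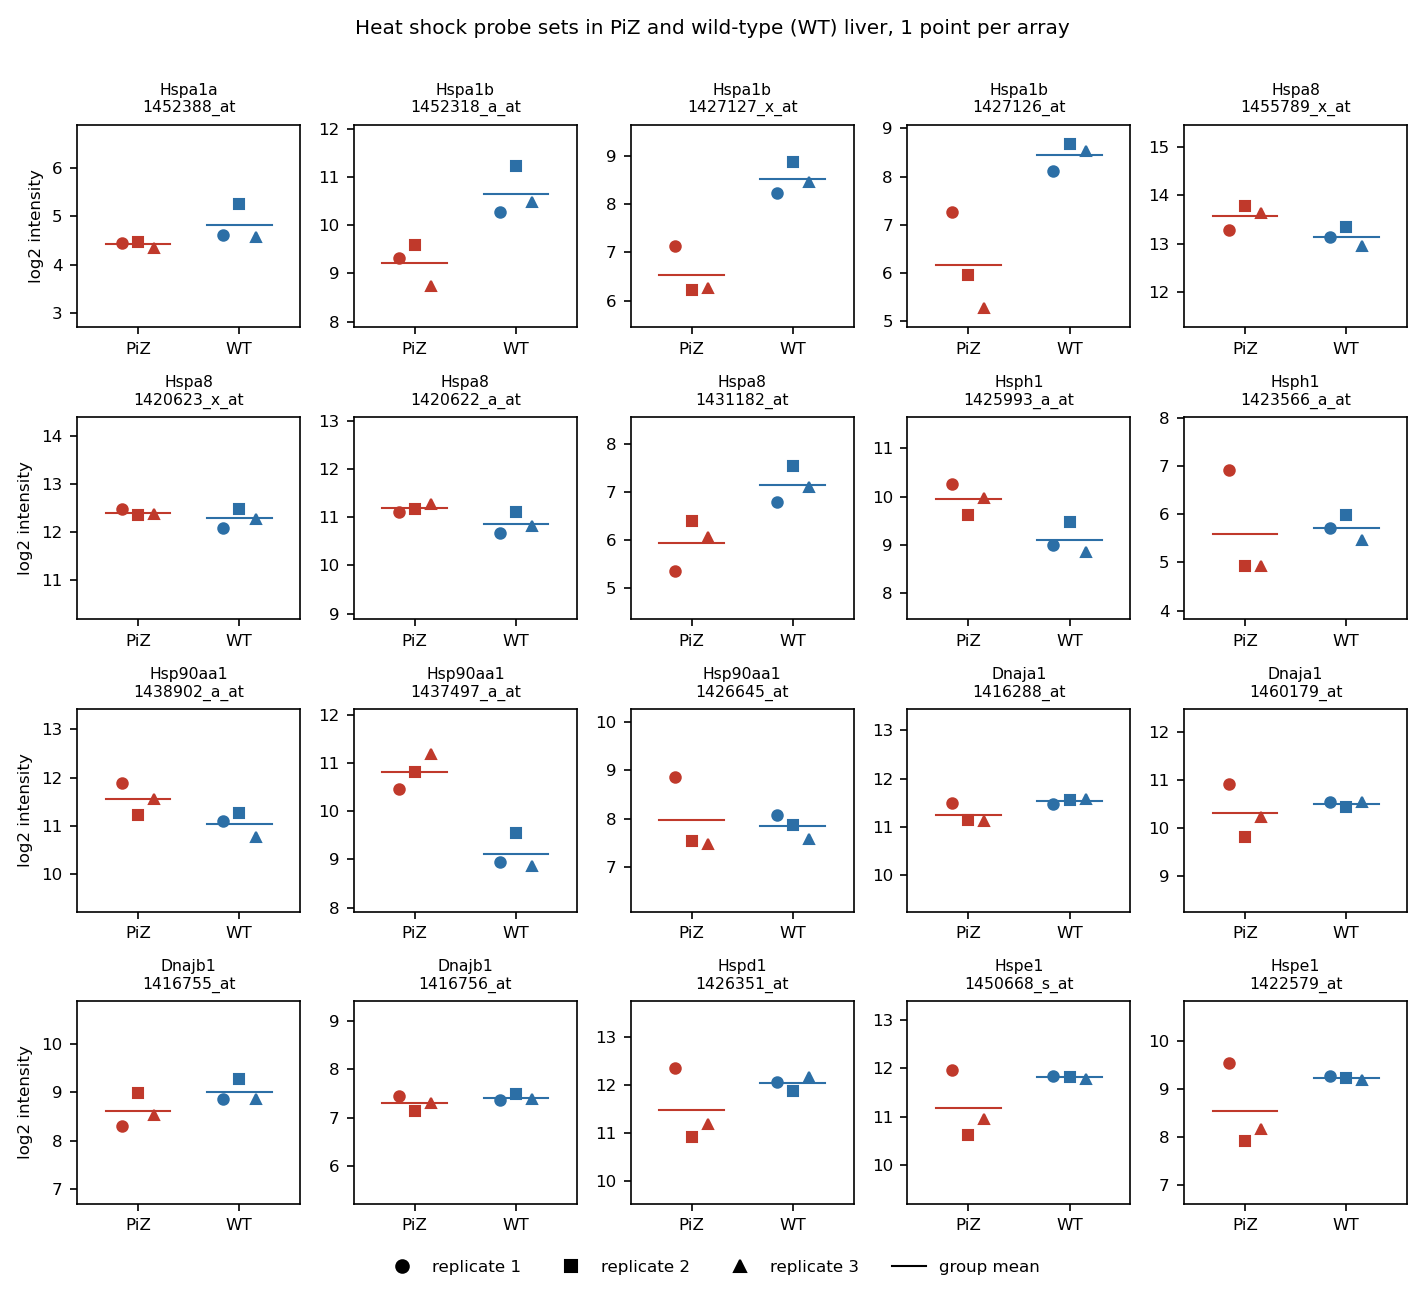
Log2 intensity of each of the 20 probe sets (panels) in the 3 PiZ arrays (left, red) and 3 wild-type arrays (WT, right, blue), with marker shape for the replicate and a line for the group mean. Every panel spans the same height on its own level, so distances compare across panels. The 3 Hspa1b panels show all PiZ points below all wild-type points, and the Hspd1 and Hspe1 panels show PiZ replicate 1 above and replicates 2 and 3 below wild-type.

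Hspa1b, which codes for the stress-induced HSP70, gave the largest falls of the set. Its brightest probe set, 1452318_a_at, read 9.32, 9.59 and 8.74 in PiZ replicates 1, 2 and 3, against 10.26, 11.23 and 10.47 in wild-type replicates 1, 2 and 3. All PiZ livers lay below all wild-type livers, and the difference was -1.44 (SE 0.30, limma adjusted p = 0.0179), a level 2.71 times lower in PiZ. Probe set 1427127_x_at read 7.14, 6.21 and 6.26 in PiZ and 8.24, 8.88 and 8.45 in wild-type, a difference of -1.99 (SE 0.28, adjusted p = 0.0054). Here too the groups were apart, and PiZ replicates 2 and 3 were lower than PiZ replicate 1. Probe set 1427126_at read 7.27, 5.96 and 5.29 in PiZ and 8.12, 8.67 and 8.54 in wild-type, a difference of -2.27 (SE 0.45, adjusted p = 0.0159).

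The direction for Hspa1b was the same in PiZ replicate 1 as in the other PiZ livers. The 3′ minus 5′ control value of PiZ replicate 1 (2.50) lay within the wild-type range (2.20 to 2.70). Whether RNA quality had a part in the size of the fall was not tested. PiZ replicate 1 differed from the wild-type mean by -1.33, -1.38 and -1.17 in the 3 probe sets, and the mean of PiZ replicates 2 and 3 by -1.49, -2.29 and -2.82. With the 3′ minus 5′ control value in the model the differences were -1.53 (adjusted p = 0.0565), -1.46 (adjusted p = 0.0199) and -1.28 (adjusted p = 0.0897). That value was high only in PiZ replicates 2 and 3. This fit therefore rests mainly on PiZ replicate 1 against wild-type and is not separate from that comparison. Probe set 1427127_x_at passed in 15 of 15 alternative fits, with adjusted p between 9.41e-05 and 0.0303. Probe set 1452318_a_at passed in 12 of 16 and lost its call without PiZ replicate 3 (adjusted p = 0.0616), wild-type replicate 2 (0.0535) or wild-type replicate 3 (0.0614). Probe set 1427126_at passed in 10 of 15 and lost it without PiZ replicate 2 (adjusted p = 0.0567) or without wild-type replicate 1 (0.0517), 2 (0.065) or 3 (0.0691).

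Hspa1a, the near-identical neighbour of Hspa1b, was read by a single dim probe set, 1452388_at. It read 4.45, 4.47 and 4.35 in PiZ and 4.62, 5.25 and 4.57 in wild-type, where the lower quartile of all probe sets was 4.27 to 4.46 over the arrays. The PiZ values lay just below the wild-type ones, and the difference of -0.39 (SE 0.19, limma adjusted p = 0.174) did not pass. The files hold no detection calls, so this probe set cannot be told from background. Because the 2 transcripts are nearly the same, the probe sets named for Hspa1b may read both genes.

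Hspa8, the constitutive HSP70 of the cytosol, was read by 4 probe sets that did not go one way. The brightest, 1455789_x_at, read 13.29, 13.77 and 13.64 in PiZ and 13.15, 13.34 and 12.96 in wild-type, a difference of 0.42 (SE 0.16, limma adjusted p = 0.106). PiZ replicate 1 lay within the wild-type range and replicates 2 and 3 above it, and the difference passed without PiZ replicate 1 (0.56, adjusted p = 0.0104) or with array weights (0.50, 0.0139). The array weights were 0.18, 0.55 and 1.86 in PiZ replicates 1, 2 and 3 and 1.64 to 1.83 in wild-type. Both fits thus give PiZ replicate 1 little or no part and are not separate, here and for the genes below. Probe sets 1420622_a_at and 1420623_x_at differed by 0.32 (SE 0.14, adjusted p = 0.136) and 0.12 (SE 0.13, adjusted p = 0.525), and the first of these passed with array weights (0.37, 0.048). The dimmer 1431182_at read 5.37, 6.39 and 6.07 in PiZ and 6.80, 7.54 and 7.11 in wild-type, and fell by 1.20 on the log2 scale (SE 0.29, adjusted p = 0.0285). All PiZ values of this probe set were below all wild-type values, and PiZ replicate 1 was the lowest. This call was lost without PiZ replicate 3 (adjusted p = 0.0803), without wild-type replicate 1 (0.0575), 2 (0.0963) or 3 (0.0966), and after centring on reference genes (0.076). The transcript part each probe set reads is not given in the sources used here.

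Hsp90aa1, the stress-responsive cytosolic HSP90, rose in 1 of 3 probe sets. Probe set 1437497_a_at read 10.46, 10.81 and 11.18 in PiZ and 8.95, 9.54 and 8.85 in wild-type, a difference of 1.70 (SE 0.24, limma adjusted p = 0.00543), or 3.26-fold. No PiZ liver came within the wild-type range, and the probe set passed in 15 of 15 alternative fits (adjusted p between 0.000244 and 0.0321). The brightest probe set, 1438902_a_at, read 11.88, 11.22 and 11.56 in PiZ and 11.09, 11.26 and 10.76 in wild-type, a difference of 0.51 (SE 0.20, adjusted p = 0.108). PiZ replicate 2 lay within the wild-type range, and the difference passed after cyclic loess (0.64, adjusted p = 0.0442), array weights (0.47, 0.0412), a further quantile normalization (0.63, 0.0488) or centring on reference genes (0.72, 0.036), and for PiZ replicate 1 alone (0.84, 0.0359). The third, 1426645_at, read 8.86, 7.54 and 7.48 in PiZ and 8.07, 7.87 and 7.57 in wild-type, a difference of 0.13 (SE 0.36, adjusted p = 0.82). In it PiZ replicate 1 was above all wild-type livers and PiZ replicates 2 and 3 were below them. With the 3′ minus 5′ control value in the model this probe set differed by 1.04 (adjusted p = 0.028), and PiZ replicate 1 alone differed from wild-type by 1.03 (0.0194, with the spread from the wild-type arrays only).

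Hsph1, the HSP110 partner of HSP70, rose in its brighter probe set. Probe set 1425993_a_at read 10.26, 9.63 and 9.96 in PiZ and 9.01, 9.48 and 8.85 in wild-type, a difference of 0.84 (SE 0.21, limma adjusted p = 0.035), or 1.79-fold. All PiZ values were above all wild-type values, although PiZ replicate 2 and wild-type replicate 2 were close. The call was lost without PiZ replicate 3 (adjusted p = 0.108), wild-type replicate 1 (0.126) or wild-type replicate 3 (0.131). The dimmer 1423566_a_at read 6.91, 4.92 and 4.92 in PiZ and 5.72, 5.99 and 5.46 in wild-type, a difference of -0.14 (SE 0.51, adjusted p = 0.864). Here PiZ replicate 1 was above and PiZ replicates 2 and 3 were below all wild-type livers, and without PiZ replicate 1 the difference was -0.80 (adjusted p = 0.00451). In PiZ replicate 1 both probe sets of Hsph1 were above the wild-type mean by about the same amount (1.15 and 1.19).

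**Figure D2:**
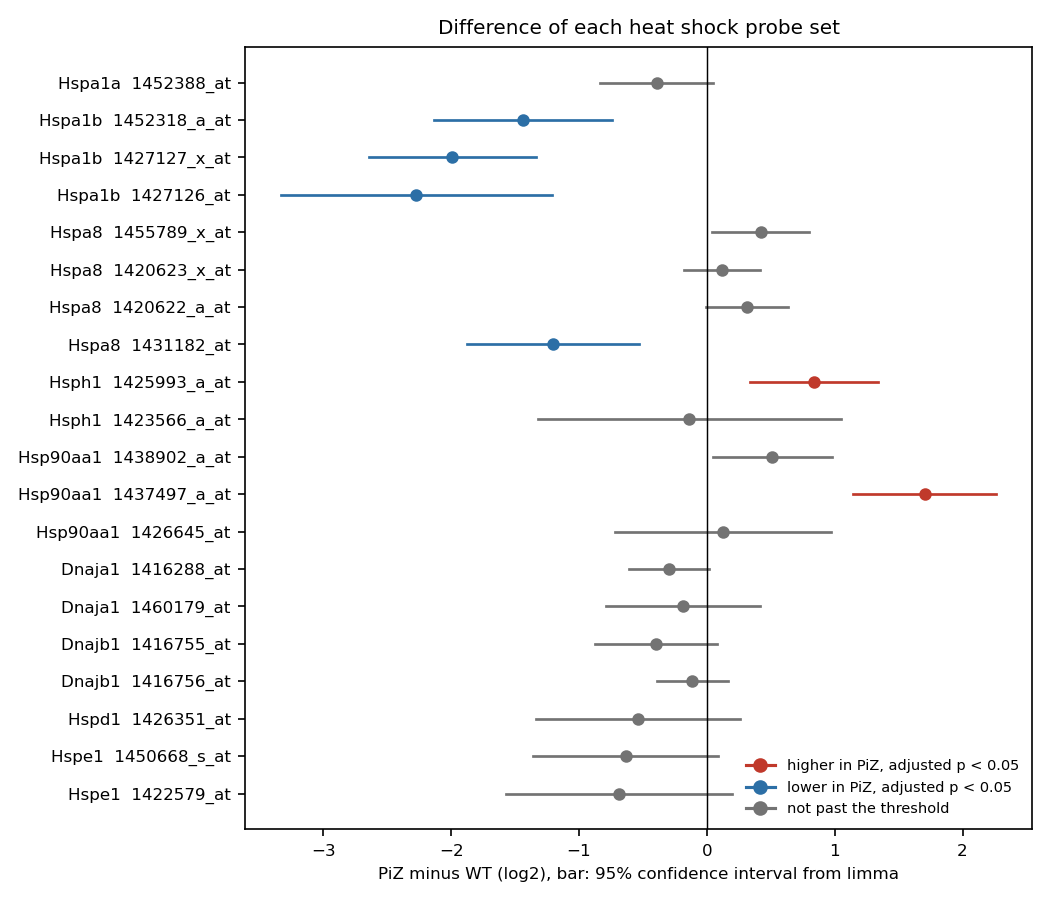
Difference between PiZ and wild-type (WT) liver on the log2 scale for each of the 20 probe sets (points), with the 95% confidence interval from limma (bars); red passed higher, blue passed lower and grey did not pass at an adjusted p of 0.05. The 3 Hspa1b probe sets lie between -2.27 and -1.44, and 1437497_a_at of Hsp90aa1 lies at 1.70.

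The J-proteins Dnajb1 and Dnaja1, which bring substrates to HSP70, did not pass in the fit of all arrays without weights or covariates. Dnajb1, a classical heat-induced gene, read 8.31, 8.99 and 8.53 in PiZ and 8.87, 9.28 and 8.85 in wild-type in its brighter probe set, 1416755_at, a difference of -0.40 (SE 0.20, limma adjusted p = 0.199, 95% interval -0.87 to 0.08). PiZ replicate 2 lay within the wild-type range and replicates 1 and 3 below it, and with the 3′ minus 5′ control value in the model the difference was -0.80 (adjusted p = 0.0406). The other Dnajb1 probe set, 1416756_at, differed by -0.11 (95% interval -0.39 to 0.17, adjusted p = 0.519), and by 0.09 after centring on reference genes. Dnaja1 read 11.50, 11.13 and 11.11 in PiZ and 11.48, 11.57 and 11.57 in wild-type in 1416288_at, a difference of -0.29 (SE 0.13, adjusted p = 0.156, 95% interval -0.60 to 0.02). Only PiZ replicate 1 lay within the wild-type range of this probe set, and the difference passed without it (-0.42, adjusted p = 0.00985) or with array weights (-0.40, 0.00956). The other Dnaja1 probe set, 1460179_at, read 10.92, 9.82 and 10.22 in PiZ and 10.54, 10.43 and 10.55 in wild-type, a difference of -0.19 (SE 0.26, adjusted p = 0.622), with PiZ replicate 1 above and replicates 2 and 3 below all wild-type livers. Without PiZ replicate 1 it was -0.49 (adjusted p = 0.0212).

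The mitochondrial chaperonin genes Hspd1 and Hspe1 had one pattern over the arrays, and it split the PiZ livers. Hspd1 (1426351_at) read 12.35, 10.92 and 11.19 in PiZ and 12.05, 11.87 and 12.16 in wild-type, a difference of -0.54 (SE 0.34, limma adjusted p = 0.282). Hspe1 read 11.96, 10.62 and 10.95 in PiZ and 11.84, 11.82 and 11.78 in wild-type in 1450668_s_at, a difference of -0.63 (SE 0.31, adjusted p = 0.179). In both genes PiZ replicate 1 was above all wild-type livers, and PiZ replicates 2 and 3 were below them. The other Hspe1 probe set, 1422579_at, read 9.53, 7.91 and 8.18 in PiZ and 9.26, 9.23 and 9.18 in wild-type (difference -0.68, SE 0.38, adjusted p = 0.226). The wild-type values of Hspe1 were close together, with an SD of 0.03 in 1450668_s_at and 0.04 in 1422579_at, against 0.70 and 0.86 in PiZ.

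The low PiZ values of the chaperonin genes were those of the 2 arrays with the large 3′ to 5′ difference. Without PiZ replicate 1 the differences of Hspd1 and of the 2 Hspe1 probe sets were -0.97, -1.03 and -1.18 (limma adjusted p = 0.000861, 0.000459 and 0.000198), in a fit that called 46.6% of all probe sets. In PiZ replicate 1 alone against wild-type they were 0.32, 0.15 and 0.30 (adjusted p = 0.19, 0.422 and 0.125), in a fit that called 15.3% and took its spread from the wild-type arrays only. After adding the 3′ minus 5′ control value to the model they were 0.38, 0.18 and 0.33 (adjusted p = 0.104, 0.527 and 0.254), in a fit that called 12.4%. Array weights gave -0.81 for Hspd1 and -0.86 for the brighter Hspe1 probe set (adjusted p = 0.00532 and 0.00204), and the other Hspe1 probe set passed lower too (0.00195), in a fit that called 48.6%.

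**Figure D3:**
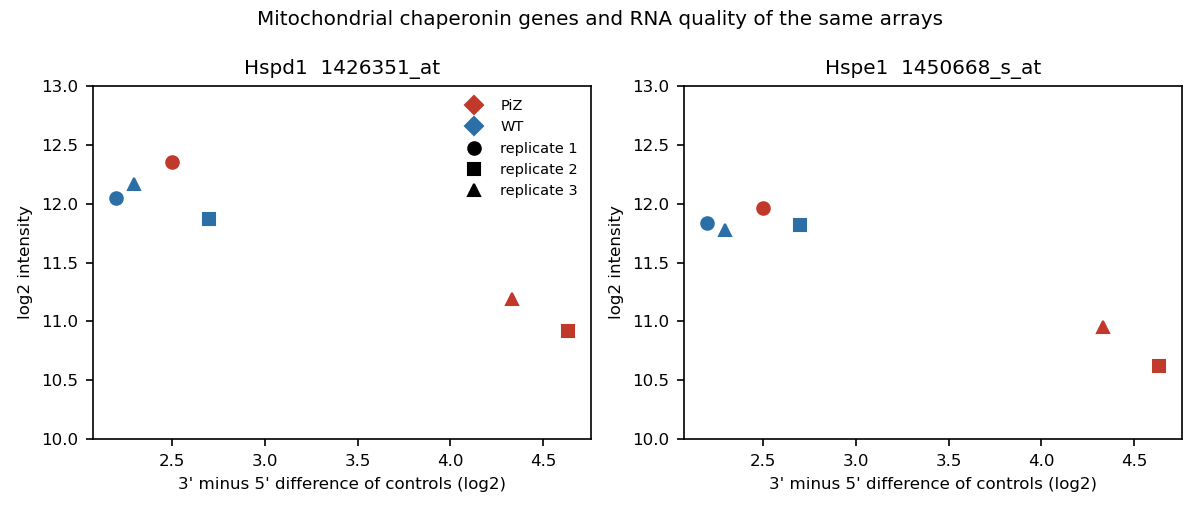
Log2 intensity of Hspd1 and Hspe1 (vertical axis, brightest probe sets) against the mean 3′ minus 5′ difference of the control transcripts on the same array (horizontal axis, log2), for PiZ (red) and wild-type (WT, blue) with marker shape for the replicate. PiZ replicates 2 and 3 lie apart at 4.64 and 4.33 with the lowest levels, and PiZ replicate 1 at 2.50 lies above the wild-type arrays.

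Over all members, PiZ replicate 1 and the mean of PiZ replicates 2 and 3 lay on opposite sides of the wild-type mean in 7 of 20 probe sets (35%), and in 30.0% of all probe sets. These 7 were the Hspd1 probe set, both of Hspe1, and 1 each of Hsph1, Hsp90aa1, Dnaja1 and Dnajb1. The median distance from the wild-type mean was 0.17 in PiZ replicate 1 and -0.41 in PiZ replicates 2 and 3, where all probe sets had 0.01 and 0.11. In PiZ replicate 1 alone against wild-type, with the spread from the wild-type arrays only, 5 member probe sets passed higher and 4 lower, where 15.3% of all probe sets passed. Without PiZ replicate 1, 3 passed higher and 10 lower, where 46.6% of all probe sets passed.

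The number of members called differed between alternative fits, as did the share of all probe sets called. Array weights called 5 members higher and 8 lower, with 48.6% of all probe sets passing. Cyclic loess (18.5%), a further quantile normalization (18.1%), an intensity trend with a robust prior (18.6%), the replicate block (22.9%) and the removal of dim probe sets (32.3%, with 18 members tested) each called 2 or 3 members higher and 4 lower. Centring on reference genes called 3 higher and 3 lower at 13.8%, and the 3′ minus 5′ control value in the model 3 higher and 3 lower at 12.4%. With 1 probe set per gene, 9 members were tested and Hsph1 rose and Hspa1b fell, at 23.6% of genes in that fit and 21.2% in the fit of all probe sets. Leaving out PiZ replicate 2 or 3 or wild-type replicate 1, 2 or 3 lowered the share to 10.7%, 8.2%, 5.6%, 6.79% and 5.48%, and called 1 or 2 members higher and 1 to 3 lower. At an adjusted p below 0.01, 5.01% of all probe sets passed, with 1 member probe set of Hsp90aa1 higher and 1 of Hspa1b lower.

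**Figure D4:**
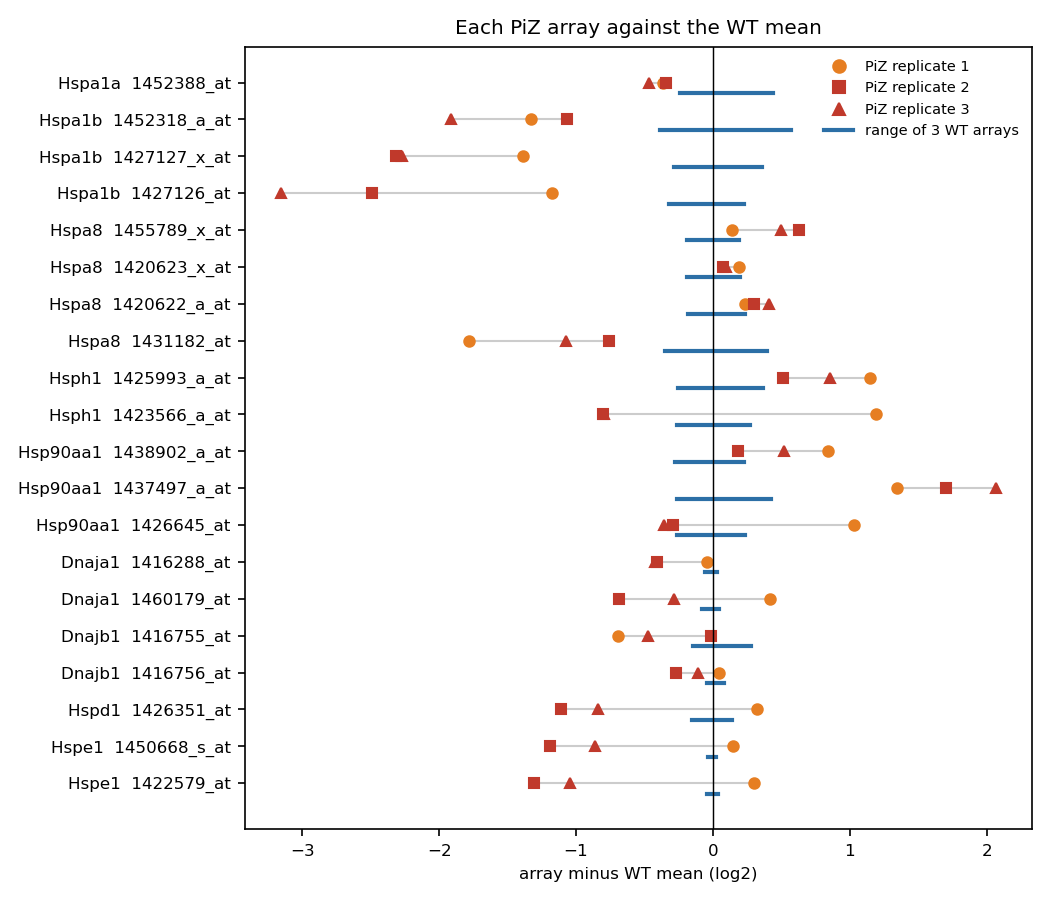
Distance of each PiZ array from the wild-type (WT) mean on the log2 scale for the 20 probe sets; orange circles are PiZ replicate 1, red squares and triangles replicates 2 and 3, and blue bars the range of the 3 WT arrays. For Hspa1b all PiZ arrays lie left of the WT range, and for Hspd1 and Hspe1 replicate 1 lies right of it and replicates 2 and 3 left.

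The genes closest in pattern were found by the Pearson correlation with the brightest probe set over the 6 arrays, in which genotype and RNA quality also differ. For Hspa8 they were Lrrc61 (r = 0.999), Mapk8ip2 (0.998) and Nsmf (0.995). For Hspd1 they were Wwp1, Gbe1 and Gnpnat1 (r = 0.999 each). Their lower readings in PiZ replicates 2 and 3 than in any other array follow from this choice and are not a separate result. Gbe1, the glycogen branching enzyme, for example read 9.57, 7.28 and 7.72 in PiZ and 9.14, 8.92 and 9.37 in wild-type.

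Other chaperones of the cytosol and mitochondria went both ways. Of 76 such genes in 8 lists, each read by its brightest probe set, 11 rose and 4 fell, where 9.99% of all genes rose and 11.2% fell, and their median of 0.08 was that of all genes (0.08). Among heat shock factors and regulators (3 measured; Hsf1 was not analysed here) Hsf2, a factor related to HSF1, fell to 5.76, 5.59 and 5.69 in PiZ, against 6.25, 6.26 and 6.65 in wild-type (-0.70, SE 0.14, limma adjusted p = 0.0163). Of 6 other cytosolic HSP70 and HSP110 genes limma called 0, and 1 had an unadjusted p below 0.05. This was Hspa4l, an HSP110 (0.49, adjusted p = 0.0606), and Hspa14 read -0.43 (adjusted p = 0.19). The call of Hsf2 was lost without PiZ replicate 2 or 3 or wild-type replicate 1 or 3 (adjusted p of 0.0506 to 0.0596), after centring (-0.50, 0.0903) and with the 3′ minus 5′ control value in the model (-0.60, 0.0757). Its probe set was below the median of all probe sets, so it was not in the fit without dim ones.

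Among co-chaperones and small heat shock proteins the calls were mostly upward. Of 7 small heat shock proteins 1 rose and limma called 0 lower (0 also at an unadjusted p below 0.05). It was Hspb8, which works with Bag3 to send misfolded proteins to autophagy, at 11.18, 11.54 and 11.45 in PiZ and 10.07, 10.23 and 10.32 in wild-type (1.19, SE 0.13, adjusted p = 0.00276). All PiZ livers were above all wild-type livers in this probe set, which passed in 16 of 16 alternative fits. Limma called 2 of the 3 probe sets of Hspb8 higher, and the lowest read 0.30. Bag3 itself read 0.47 (adjusted p = 0.145) and was named after its value was seen. Of 10 HSP70 co-chaperones, 2 rose and limma called 0 lower (2 at an unadjusted p below 0.05). These were Bag2, an inhibitor of the ubiquitin ligase Stub1 (1.49, SE 0.41, adjusted p = 0.0435), and Sgta (0.42, SE 0.12, adjusted p = 0.0499). The values of Bag2 were 7.05, 5.22 and 5.76 in PiZ and 4.61, 4.47 and 4.47 in wild-type, with PiZ replicate 1 the highest. Its wild-type values were close to the lower quartile of all probe sets (4.27 to 4.32 in wild-type arrays), and it was not in the fit without dim probe sets. Bag2 lost its call without PiZ replicate 3 or any 1 wild-type array (adjusted p of 0.102 to 0.135), and Sgta without PiZ replicate 2 or 3 or any 1 wild-type array (0.0845 to 0.154). Bag2 also lost it under cyclic loess (0.0715) and further quantile normalization (0.0672), and read 2.60 with the 3′ minus 5′ control value in the model. Sgta also lost it under centring (0.0615), the intensity trend (0.0659), the replicate block (0.0539) and that control value (0.33, adjusted p = 0.214).

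Of 11 HSP90 co-chaperones, 2 rose and limma called 0 lower (1 at an unadjusted p below 0.05). Cdc37l1, related to the kinase co-chaperone Cdc37, rose by 0.91 (SE 0.20, adjusted p = 0.0216), although its 3 probe sets lay between -0.52 and 0.91. The myosin chaperone Unc45a rose by 0.79 (SE 0.21, adjusted p = 0.0401). Of 11 other J-proteins 2 rose and 1 fell. Dnajb2 rose by 0.90 (SE 0.17, adjusted p = 0.0132) and Dnaja4 by 0.52 (SE 0.14, adjusted p = 0.0454). Limma called 1 of the 3 probe sets of Dnaja4, and the lowest read -0.06. Dnajb6, which holds back protein aggregation, differed by -1.06 (SE 0.27, adjusted p = 0.0354), with the lowest and highest of its 4 probe sets at -1.06 and 0.50. Unc45a, Dnaja4 and Dnajb6 lost their calls without any 1 array other than PiZ replicate 1 (adjusted p of 0.0612 to 0.163). Cdc37l1 lost it without any 1 wild-type array (0.0617 to 0.0909), and Dnajb2 without wild-type replicate 1 (0.0634) or 3 (0.0623). With the 3′ minus 5′ control value in the model, Unc45a read 0.31 (adjusted p = 0.289), Dnajb6 -0.38 (0.206), Cdc37l1 0.58 (0.142) and Dnajb2 0.74 (0.0684). Dnaja4 lost its call under cyclic loess (0.103), further quantile normalization (0.0739) and the intensity trend (0.0503).

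Subunits of TRiC, the chaperonin ring that folds actin and tubulin in the cytosol, were split, as were mitochondrial folding genes. Of 13 TRiC and prefoldin genes 2 rose and 1 fell. Cct3 rose by 1.15 (SE 0.14, adjusted p = 0.00327), with 5 of its 6 probe sets called higher, and Cct7 by 0.72 (SE 0.13, adjusted p = 0.0122), with its other probe set at -0.07. Cct8, a subunit of the same ring, read 9.96, 8.45 and 8.67 in PiZ and 10.32, 10.28 and 10.23 in wild-type (-1.25, SE 0.36, adjusted p = 0.0487), and its other probe set read 0.02. Of 15 mitochondrial chaperones and proteases 2 rose and 1 fell. The matrix proteases Clpp and Lonp1 rose by 1.02 (SE 0.20, adjusted p = 0.014) and 0.86 (SE 0.11, adjusted p = 0.00429), and all PiZ livers were above all wild-type livers in both. The other probe set of Clpp read 0.06. Grpel1, the nucleotide exchange factor of mitochondrial HSP70, read 10.51, 9.24 and 9.07 in PiZ and 10.94, 10.75 and 11.09 in wild-type (-1.32, SE 0.35, adjusted p = 0.0398). As for Hspd1 and Hspe1, PiZ replicates 2 and 3 were the lowest arrays for Cct8 and Grpel1. Both lost their calls without any 1 array other than PiZ replicate 1 (adjusted p of 0.0941 to 0.159), and with the 3′ minus 5′ control value in the model Cct8 read -0.29 (0.29), Grpel1 -0.39 (0.202) and Clpp 0.56 (0.0425). Cct8 also lost its call under cyclic loess (0.0507). Clpp lost its call without PiZ replicate 3 or any 1 wild-type array (0.0543 to 0.0629) and Cct7 without wild-type replicate 1 (0.0639) or 3 (0.0629), while Cct3 and Lonp1 passed in 16 of 16 alternative fits.

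The ER relatives of the cytosolic chaperones were higher. Of 6 genes 4 rose and limma called 0 lower (0 also at an unadjusted p below 0.05), with a median of 0.84 (1.12 in PiZ replicate 1 and 0.66 in PiZ replicates 2 and 3). Hyou1, the ER relative of Hsph1, rose by 1.41 (SE 0.16, adjusted p = 0.00302), the J-protein Dnajc3 by 0.91 (SE 0.11, adjusted p = 0.00316), the ER HSP70 Hspa5 by 0.90 (SE 0.17, adjusted p = 0.0132) and the ER HSP90 Hsp90b1 by 0.58 (SE 0.11, adjusted p = 0.0123). Limma called higher 1 of 3 probe sets of Hyou1 (range 0.51 to 1.41) and 2 of 5 of Dnajc3 (range -0.16 to 0.91). Both probe sets of Hspa5 and both of Hsp90b1 were called higher. Hspa5 read 14.04, 13.60 and 13.63 in PiZ and 13.03, 12.94 and 12.60 in wild-type, with the groups apart. Its call was lost without wild-type replicate 3 (adjusted p = 0.0591), and that of Hsp90b1 without wild-type replicate 1 (0.0575) or 3 (0.0667). In the cytosol, 1 probe set each of Hsp90aa1 (1.70) and Hsph1 (0.84) rose, Hspa8 was not called in its brightest probe set and Hspa1b fell. Whether the ER and cytosolic changes differ was not tested.

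Among 12 other heat-inducible genes, Hspb8 and Dnaja4 rose and limma called 0 lower (0 also at an unadjusted p below 0.05), with a median of 0.35. Immediate early genes, which respond within minutes to many stresses, gave 4 of 12 higher and 0 lower by limma (0 also at an unadjusted p below 0.05). They were Atf3 (5.28, SE 0.31), Btg2 (2.19, SE 0.49), Jund (1.24, SE 0.14) and Fosb (0.68, SE 0.15), with adjusted p of 0.00022, 0.0232, 0.00245 and 0.0224. Btg2 and Fosb lost their calls without PiZ replicate 2 or any 1 wild-type array (0.0543 to 0.098), and Fosb under cyclic loess (0.06) and further quantile normalization (0.0565). Fosb was dim, at 4.33, 4.02 and 3.82 in PiZ and 3.34, 3.49 and 3.29 in wild-type. On each array it lay below the lower quartile of all probe sets (4.27 to 4.46 over the arrays), so it cannot be told from background. It was not in the fit without dim probe sets.

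**Figure D5:**
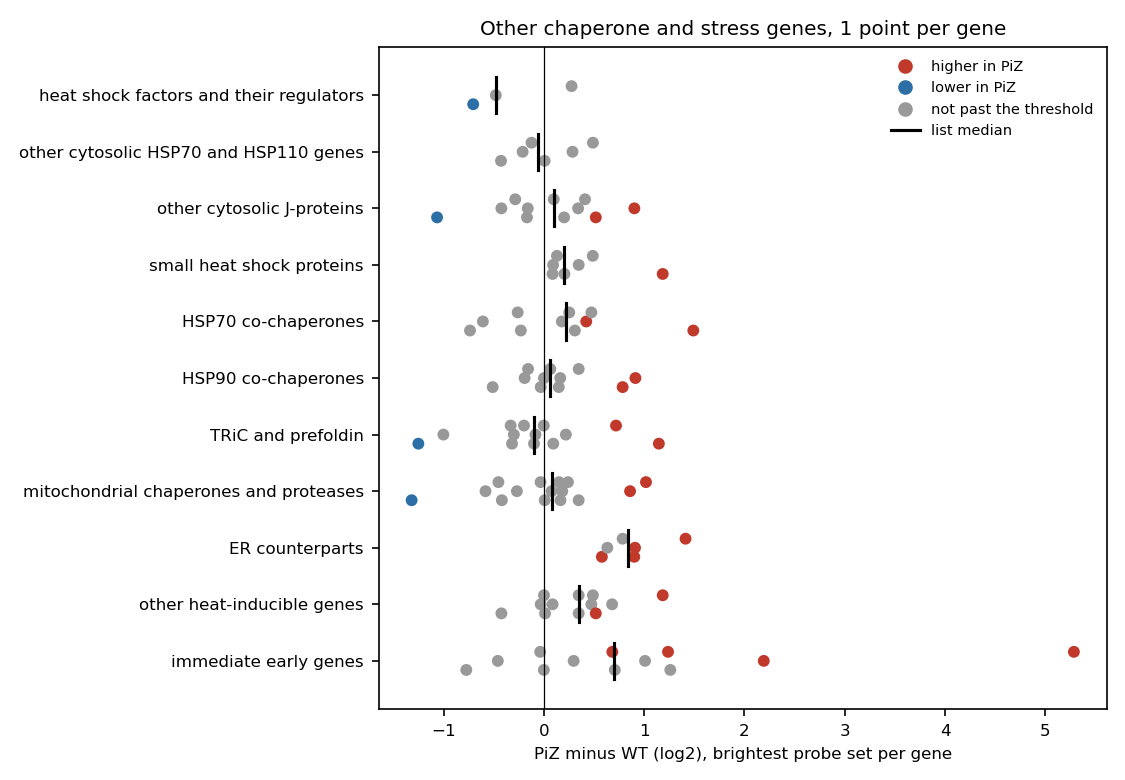
Difference between PiZ and wild-type liver on the log2 scale (horizontal axis) for the genes of 11 lists (rows), 1 point per gene from its brightest probe set, with a black bar for the list median; red passed higher, blue passed lower and grey did not pass. The ER genes all lie right of 0 with a median of 0.84, as do the 7 small heat shock proteins, with a median of 0.21. In PiZ replicate 1 all 6 ER genes but only 3 of the 7 small heat shock proteins were above the wild-type mean. The median of the small heat shock proteins was -0.04 in PiZ replicate 1 and 0.29 in PiZ replicates 2 and 3. The other cytosolic and mitochondrial lists have medians between -0.48 and 0.22.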

How the data were processed

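Liver RNA of 3 PiZ and 3 wild-type mice was measured on one-colour Affymetrix arrays, with 1 array per mouse, after labelling of cRNA with biotin, per the labels' protocols. The authors deposited log2 intensities of probe sets, computed with RMA from the affy package according to the submitters' processing notes. RMA forces the arrays to one distribution, which hides any shift common to most transcripts. Tool versions, chip definition, genome build and filters are not stated in the labels or files. That the scale is log2 follows from the range of the values.

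Of 22690 probe sets 64 controls were left out. A platform annotation table named 1 gene for 20380 of the remaining probe sets, several for 691 and none for 1555. All 22626 probe sets were fitted by limma 3.58.1 (R 4.3.3; lmFit, eBayes, two-sided, without covariates), with Benjamini-Hochberg adjustment and a threshold of 0.05. The script was tested on simulated data. Tables used pandas 2.3.3 under Python 3.11.15, and figures matplotlib 3.10.9. The number of arrays limits the precision. Since the titles name biological replicates, the spread behind each p-value is that between mice.

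Every member probe set was named. Other genes were read by their brightest probe set (highest mean of the 6 arrays), and each list named its up to 4 called genes of largest change or, with none called, its 2 of lowest p. The members and lists were chosen with earlier results of these data known. Alternatives changed probe set choice, the dim filter, scaling, variance model, array weights, replicate block, RNA quality covariate, threshold and the arrays used.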

Additional observations from a re-analysis of the deposited data

How the results depend on the processing

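With 3 arrays per group and 1 PiZ array apart from the others, counts of calls moved more than directions. Over the alternatives for single member probe sets, 248 results kept their direction and side of the threshold, 21 newly passed, 17 no longer passed and 21 changed sign. Among the 248 are results whose sign could not change, because the fit leaves each difference as it was. These came from 1 probe set per gene (9 results), no dim probe sets (18), the intensity trend (20) and the replicate block (20). Leaving out each array in turn gave 598 to 5734 probe sets higher and 641 to 4813 lower over the whole array (2020 and 2311 with all arrays), 1 to 3 member probe sets higher and 1 to 10 lower, and 3 to 19 other chaperone genes higher and 0 to 21 lower (limma; 6 to 23 lower at an unadjusted p below 0.05). The highest of these came without PiZ replicate 1. Array weights gave 6038 and 4948 over the array, 5 and 8 members, and 24 and 19 other chaperones, higher and lower. The 3′ to 5′ covariate gave 1308 and 1504 over the array and 1 other chaperone lower. PiZ replicate 1 alone, with the spread from wild-type only, gave 5 members higher and 4 lower, and 12 other chaperones higher and 1 lower. A threshold of 0.01 gave 550 and 583 over the array, 1 and 1 members, and 3 and 0 other chaperones (10 lower at an unadjusted p below 0.05). One probe set per gene, which leaves 9 member probe sets, gave 1525 lower over the array and 1 member each way. Centring on 7 reference genes moved the median of all probe sets to 0.28, against 0.08 as deposited, gave 1182 lower, and made 62.3% of calls higher against 46.6%. Of these 7 genes limma itself called 2 higher (Ywhaz 0.90 and Rpl13a 0.37) and 2 lower (Gusb -1.18 and Tbp -0.72). Centring adds 1 value per array to all probe sets, so it carries the differences of these genes into every other one. The cause of the other shifts was not tested.

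The 3 probe sets of Hspa1b, the 4 of Hspa8, 1425993_a_at of Hsph1 and 2 of Hsp90aa1 kept their sign in every alternative run. Signs changed as follows. Centring gave 0.069 for Hsph1 1423566_a_at, 0.019 for Dnaja1 1460179_at and 0.093 for Dnajb1 1416756_at. The covariate gave 1.15, 0.47 and 0.037 for these, 0.38 for Hspd1, 0.18 and 0.33 for Hspe1 and 0.12 for Hspa14. PiZ replicate 1 alone gave 1.19, 0.42 and 0.042, then 0.32 for Hspd1, 0.15 and 0.30 for Hspe1 and 0.094 for Hspa14. Hsp90aa1 1426645_at read -0.24 with array weights, 1.04 with the covariate and 1.03 in PiZ replicate 1 alone. Leaving out each array in turn, it ran between -0.32 (without PiZ replicate 1) and 0.37 (without PiZ replicate 3), Hsph1 1423566_a_at between -0.80 (without PiZ replicate 1) and 0.20 (without PiZ replicate 2), and Dnaja1 1460179_at between -0.49 (without PiZ replicate 1) and 0.066 (without PiZ replicate 2).

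Same-numbered arrays of the groups deviated together for replicates 1 and 2 (correlation of deviations 0.30 each) and not for replicate 3 (-0.04). PiZ replicate 3 with wild-type replicate 2 gave 0.29. With 3 arrays per group and PiZ replicate 1 apart, these correlations cannot show whether the numbers pair the samples. With the replicate block 2281 probe sets were higher and 2908 lower, 2 and 4 of them members, and 7 other chaperones were lower. The alternatives for other chaperones were added after the data were seen.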

Other observations

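Among the wild-type livers, replicate 2 had the highest value in 14 of the 20 member probe sets (70%), where it was the highest in 35.3% of all probe sets. These 14 included all probe sets of Hspa1a, Hspa1b, Hspa8, Hsph1 and Dnajb1. Probe sets of 1 gene are not independent, and no test was made. Of 12 immediate early genes, wild-type replicate 1 was the highest of its group in 9 and replicate 2 in 3 (Atf3, Fosb and Myc). Among the 9 were Egr1 at 11.73, 9.51 and 7.87 and Fos at 7.98, 6.18 and 6.03 in replicates 1, 2 and 3.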
